A study of Mus musculus with 16 samples.

Results

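Microglia/macrophages of mice whose vitamin D receptor gene had been deleted in these cells were compared between ischemic stroke and sham surgery. The comparison set 4 RNA-sequencing libraries of MCAO Vdr-cKO mice against 3 libraries of sham Vdr-cKO mice, chosen by the genotype and treatment in the sample labels, out of 16 libraries in all, and covered all genes. Vdr-cKO mice were male C57BL/6 mice of 10 to 12 weeks with the genotype Vdrf/f Cx3cr1CreER/+. Tamoxifen was given before surgery, and the paper's methods do not limit it to either genotype. In Vdr-cKO mice it activates a Cre recombinase driven by the Cx3cr1 promoter, which cuts the loxP-flanked Vdr alleles. The Cre is expressed by Cx3cr1+ cells, which include microglia, macrophages of the brain borders and monocytes. Which of the cells present on day 3 carried the deletion, monocytes in particular, was not measured here. MCAO is a transient occlusion of the middle cerebral artery with a filament, and the sham groups had surgery without it. Cells were taken on day 3. MCAO control (4 libraries) and sham control (5 libraries) came from Vdrf/f littermates without Cre and were used only to test where the change after MCAO differed between the genotypes. The comparison therefore asks what stroke did to the transcriptome of microglia/macrophages of Vdr-cKO mice. The sources do not state whether a library is 1 mouse or a pool, so p-values measure the spread between these libraries, and the sources differ on whether cells were isolated with CD11b beads or sorted as CD11b+ cells of intermediate CD45.

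Microglia are the resident macrophages of the brain. At rest they hold a homeostatic program (P2ry12, Tmem119, Cx3cr1) that is maintained by TGF-beta signaling and the transcription factor Sall1. After ischemia they and blood monocytes that enter the lesion clear dead cells, which loads them with lipid and iron, divide, and secrete chemokines, cytokines and proteases. Interferon-stimulated genes (ISGs) are the targets of transcription factors activated downstream of interferon receptors. The vitamin D receptor is a nuclear receptor that pairs with retinoid X receptors to regulate transcription.

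Levels are given in CPM, the counts scaled by library size times a TMM factor, in the order of replicates 1 to 4 for MCAO and 1 to 3 for sham. Log2 fold changes are MCAO over sham with their standard error after ±, and adjusted p-values come from edgeR's quasi-likelihood test with Benjamini-Hochberg adjustment over all genes tested. A value alone in parentheses after a gene is its log2 fold change. A gene "rose" or "fell" where the adjusted p was under 0.05. Differentially expressed genes (DEGs) also had an absolute log2 fold change above 1.

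Total counts were 16457565 to 17836796 in MCAO Vdr-cKO libraries and 14850289 to 15708180 in sham Vdr-cKO libraries (p = 0.0571 in an exact, 2-sided permutation test, which cannot go lower with 4 against 3 libraries). TMM factors ran from 0.88 to 0.94 after MCAO and from 1.08 to 1.10 after sham. Genes of the mitochondrial genome took 1.14% to 1.54% of counts after MCAO and 1.45% to 2.23% after sham (exact permutation p = 0.114). The first principal component held 86.1% of the variance and separated MCAO from sham. Defining microglial markers were high in every library, with 792 to 1449 CPM of P2ry12 after MCAO and 3164 to 4146 CPM after sham. Within the MCAO group, replicates 3 and 4 were alike (chi-square of the counts per degree of freedom 6.96). Replicates 1 and 2 differed from each other (21.2) nearly as much as 2 from 3 (24.6). In some gene lists, though, replicates 1 and 2 both stood apart from 3 and 4. All 18 markers of infiltrating monocytes were higher in replicates 1 and 2 than in 3 and 4, against 20.1% of all genes tested. Replicates 1 and 2 were also higher for 15 of 25 Toll-like receptor and NF-kB genes and 9 of 13 genes of arginine metabolism and alternative activation. The same held for 7 of 12 folding genes of the endoplasmic reticulum. They were lower for 17 of 27 lysosomal and 16 of 28 disease-associated genes, against 21.6% of all genes tested. For some lists, values without both libraries are given too. Other lists and single genes have values from all libraries only.

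Vdr itself, on chromosome 15 of GRCm38 from 97854425 to 97910630 (ENSMUSG00000022479), was nearly absent after sham and low after MCAO. It stood at 8.23, 3.24, 1.67 and 1.47 CPM after MCAO and 0.37, 0.174 and 0.534 CPM after sham. The groups did not overlap, replicate 1 was highest, and the log2 fold change was 3.31 ± 0.72 (adjusted p = 0.00238). Without MCAO replicate 1 it was 2.56 (adjusted p = 0.00154). In control mice Vdr had 1.48 to 3.4 CPM after MCAO and 0.0596 to 0.823 CPM after sham, a log2 fold change of 2.90 (adjusted p = 0.000778), and the difference between genotypes was 0.41 ± 1.02 (adjusted p = 0.898). Exons outside the deleted stretch enter these gene counts, so the deletion itself is not measured here. Cx3cr1, the fractalkine receptor, which loses 1 allele to the Cre (chromosome 9, 119901616 to 120069879), had 818, 815, 966 and 1046 CPM after MCAO and 2210.3, 1416 and 3093 CPM after sham. Every MCAO library lay below every sham library (-1.30 ± 0.22, adjusted p = 0.000429), with sham replicate 2 lowest of its group. Of the 9 genes tested among Vdr partners and enzymes of vitamin D metabolism, 2 rose and 2 fell. These shares were no larger than those of all genes tested, of which 29.3% rose and 28.8% fell. The 9 as a group therefore did not stand out. Besides Vdr the genes called were Ncoa1, a coactivator (0.34), Rxrb, a retinoid X receptor (-0.47), and Cyp27a1, a sterol and vitamin D hydroxylase (-0.68). The call of Ncoa1 was lost without any of MCAO replicates 1 and 2 and sham replicates 1, 2 and 3 (adjusted p up to 0.124) and with limma-voom (adjusted p = 0.0544), and that of Rxrb without MCAO replicate 2 or sham replicate 1 or 3 (adjusted p up to 0.185).

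Stroke changed the transcriptome of Vdr-cKO microglia/macrophages broadly. Of 16357 genes, 4796 rose (29.3%) and 4713 fell (28.8%). DEGs numbered 2350 higher (14.4%) and 2432 lower (14.9%), and in 4664 of these 4782 DEGs the MCAO and sham libraries did not overlap. Over all genes, the groups did not overlap with MCAO higher for 4929 (30.1%) and with MCAO lower for 5015 (30.7%). The gains were the larger ones: 225 DEGs were more than 16-fold higher and 23 more than 16-fold lower. The median log2 fold change of all genes was -0.02. DEGs that were higher held 29.4% of all CPM after MCAO and 9.56% after sham, while those that were lower held 3.52% after MCAO and 12.4% after sham. Without MCAO replicates 1 and 2 there were 2120 DEGs higher and 2313 lower. Scaling by the upper quartile shifted the median of all genes by -0.17 and moved the share of higher genes among DEGs to 40.1%, against 49.1% with TMM factors.

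**Figure D1:**
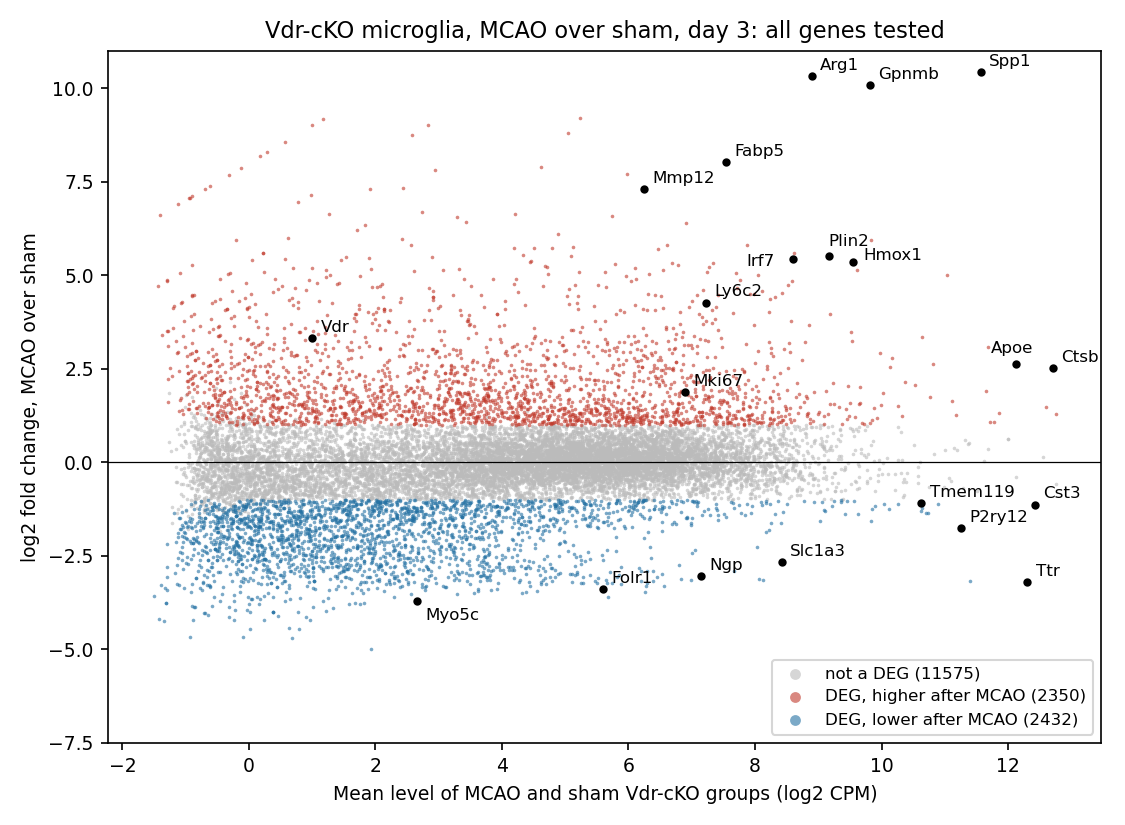
Each point is 1 of 16357 genes, with the mean level of the MCAO and sham Vdr-cKO groups (log2 CPM) on the x axis and the log2 fold change of MCAO over sham on the y axis. DEGs are in red (2350 higher after MCAO) and blue (2432 lower) and grey points are the other genes.

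The largest gains among abundant genes were in genes of matrix, arginine and lipid handling. Spp1 encodes osteopontin, a secreted matrix protein (chromosome 5, 104435118 to 104441050). It had 4415, 5346, 6104 and 8414 CPM after MCAO and 3.39, 5.79 and 3.97 CPM after sham (log2 fold change 10.42 ± 0.35, adjusted p = 1.51e-08). Gpnmb, a glycoprotein of lysosomes and of foamy macrophages, had 1315, 1837, 1813 and 2248 CPM after MCAO and 1.42, 1.91 and 1.6 CPM after sham (log2 fold change 10.09 ± 0.27, adjusted p = 4.95e-09). Both were low in every sham library and abundant in every MCAO library. Arg1, the arginase of alternatively activated and of infiltrating macrophages, stood at 1419, 1169, 650.3 and 583 CPM after MCAO and 0.37, 1.16 and 0.652 CPM after sham (log2 fold change 10.33 ± 0.51, adjusted p = 1.54e-07). Its MCAO replicates 1 and 2 lay far above replicates 3 and 4. Fabp5, a fatty acid binding protein, had 369, 306, 381 and 424 CPM after MCAO and 1.6, 0.984 and 1.66 CPM after sham (log2 fold change 8.02 ± 0.20, adjusted p = 4.95e-09), and the macrophage elastase Mmp12 had 161, 167, 145 and 133 CPM after MCAO and 0.987, 1.33 and 0.534 CPM after sham (log2 fold change 7.30 ± 0.21, adjusted p = 8.45e-09). Cd5l, a scavenger protein secreted by macrophages (7.70), F7, coagulation factor VII (8.80), Stra6l, a receptor for retinol-binding protein (7.89), and Cxcl3, a neutrophil-attracting chemokine (9.20), rose steeply too, the last 3 with 6 to 10 counts in all over the sham libraries. Gm42793, Lif, Saa3 and Mmp27 had 1 to 3 counts in all over the sham libraries, so no fold is given. After MCAO, Lif, a cytokine of the interleukin 6 family, stood at 12.9, 24.5, 6.69 and 3.46 CPM, and Saa3, an acute phase protein, at 21.6, 15, 16.2 and 8.46 CPM.

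By amount, the gains were led by lysosomal and lipid genes. Ctsb, which encodes cathepsin B, had 10774, 11080.4, 11313 and 12610.4 CPM after MCAO and 2005, 1959.6 and 2007 CPM after sham, and Apoe, the main lipid carrier of the brain, had 7648, 6677, 8365 and 8183 CPM after MCAO and 1142, 1100.3 and 1469.7 CPM after sham. The log2 fold changes were 2.52 ± 0.12 (adjusted p = 1.54e-07) and 2.64 ± 0.15 (adjusted p = 4.27e-07). In both genes every MCAO library lay above every sham library. Psap, the precursor of the saposins that activate lysosomal lipid hydrolases (1.29), Ctsd, cathepsin D (1.46), Grn, progranulin (1.90), Mpeg1, a pore-forming protein of phagocytes (1.32), and the ferritin genes were other main gains, with Thbs1, the matrix glycoprotein thrombospondin (4084 CPM on average after MCAO and 128 CPM after sham).

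Among genes of at least 10 CPM, the steepest losses after MCAO were of genes that are not typical of microglia. Ttr, the thyroid hormone carrier of the choroid plexus (chromosome 18), had 549, 1383, 1316 and 713 CPM after MCAO and 10335, 9851 and 7138 CPM after sham (log2 fold change -3.21 ± 0.31, adjusted p = 1.01e-05). Enpp2, which makes lysophosphatidic acid, had 293, 753, 751 and 383 CPM after MCAO and 5393, 5059 and 4183 CPM after sham, and Folr1, a folate receptor, had 4.56, 9.72, 11.2 and 7.93 CPM after MCAO and 95.7, 88.3 and 80.4 CPM after sham (log2 fold change -3.39 ± 0.22, adjusted p = 8.17e-07). All 10 markers of choroid plexus epithelium, a list made after these values were seen, fell, with log2 fold changes close together around a median of -3.20. Their summed level was 918 to 2295 CPM after MCAO and 12330 to 16926 CPM after sham. In control mice the same 10 fell (median -2.90), and 0 of them passed the test of the difference between genotypes. Myo5c, a myosin of epithelial cells (-3.70), the glutamine transporter Slc38a3 (-3.59), Sema3b, a secreted guidance cue (-3.49), the adhesion molecule Cntn1 (-3.47) and the melanosomal transporter Oca2 (-3.41) were among the other steep losses. In the MCAO group all 10 choroid plexus genes were higher in replicates 2 and 3 than in 1 and 4. The same order held for 1036 of the 2432 lower DEGs (42.6%), against 16.3% of all genes tested. The part that epithelial RNA had in the lower DEGs was not tested. In bulk libraries, fewer cells of a type and less RNA per cell cannot be told apart.

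The homeostatic program fell and the disease-associated program rose. Of 25 homeostatic microglial genes 22 fell and 0 rose, with a median of -1.09, against 28.8% of all genes that fell and a median of -0.02. P2ry12, the ADP receptor of resting microglia (chromosome 3, 59216272 to 59262871), had 792, 1141, 1113 and 1449 CPM after MCAO and 4146, 4027 and 3164 CPM after sham (log2 fold change -1.75 ± 0.18, adjusted p = 1.93e-05). Tmem119, a membrane protein used to tell microglia from other macrophages, had 899.7, 816, 1129 and 1212 CPM after MCAO and 2035, 2012 and 2399 CPM after sham (log2 fold change -1.09 ± 0.15, adjusted p = 0.000108). In 21 of the 25 genes, Tmem119 included, MCAO replicates 1 and 2 both lay below 3 and 4, and without these 2 libraries 19 fell and 2 rose (median -0.87). Cst3, the protease inhibitor cystatin C (-1.13), the selectin ligand Selplg (-1.12), the ADP receptor P2ry13 (-1.58), the fructose transporter Slc2a5 (-1.82), the uroplakin Upk1b (-2.25) and the transcription factor Sall1 (-1.24) fell alike. Olfml3 (-0.13) and Fcrls (0.21) did not pass the test. Tgfbr1, the type I TGF-beta receptor, stood at 756, 981, 979 and 1083 CPM after MCAO and 2417, 2481 and 2439 CPM after sham (log2 fold change -1.37 ± 0.13, adjusted p = 7.44e-06). Of 17 genes of TGF-beta signaling 3 rose and 7 fell (median -0.20), against 29.3% and 28.8% of all genes. With 1 library left out 5 to 6 fell. Those that fell included the transducer Smad3 (-0.69), Tgfb2 (-2.83) and the activating integrin Itgb8 (-2.77). Tgfb2 and Itgb8 followed the order of the choroid plexus genes, being highest in MCAO replicates 2 and 3.

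Of 28 disease-associated genes 26 rose and 0 fell, with a median of 2.32. Besides Spp1, Gpnmb, Fabp5 and Apoe, the growth factor Csf1, which keeps microglia alive, had 245, 212, 217 and 243 CPM after MCAO and 26, 23 and 29.2 CPM after sham (log2 fold change 3.13 ± 0.12, adjusted p = 2.48e-08). Axl, a receptor for dying cells, had 572, 494, 544 and 570.1 CPM after MCAO and 77.6, 78.4 and 72.9 CPM after sham (log2 fold change 2.83 ± 0.10, adjusted p = 1.97e-08), and Ch25h, which makes 25-hydroxycholesterol, had 52.5, 54.9, 54.3 and 44.5 CPM after MCAO and 1.6, 1.79 and 1.3 CPM after sham (log2 fold change 5.03 ± 0.16, adjusted p = 1.05e-08). In each of the 3 genes every MCAO library lay above every sham library. Igf1, a growth factor, had 39.6, 52, 73.7 and 101 CPM after MCAO and 16.2, 15.1 and 11.3 CPM after sham (log2 fold change 2.23 ± 0.29, adjusted p = 8.66e-05), with MCAO replicates 1 and 2 below 3 and 4. Trem2, the lipid-sensing receptor that drives this program in neurodegeneration models, did not pass the test, with 735, 659.6, 850.3 and 1008 CPM after MCAO and 938, 885 and 991 CPM after sham (log2 fold change -0.21 ± 0.14, adjusted p = 0.218), and nor did Ank (0.24). Axl was the only one of the 28 whose change differed between genotypes, by 1.55 ± 0.18 (adjusted p = 0.000134).

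**Figure D2:**
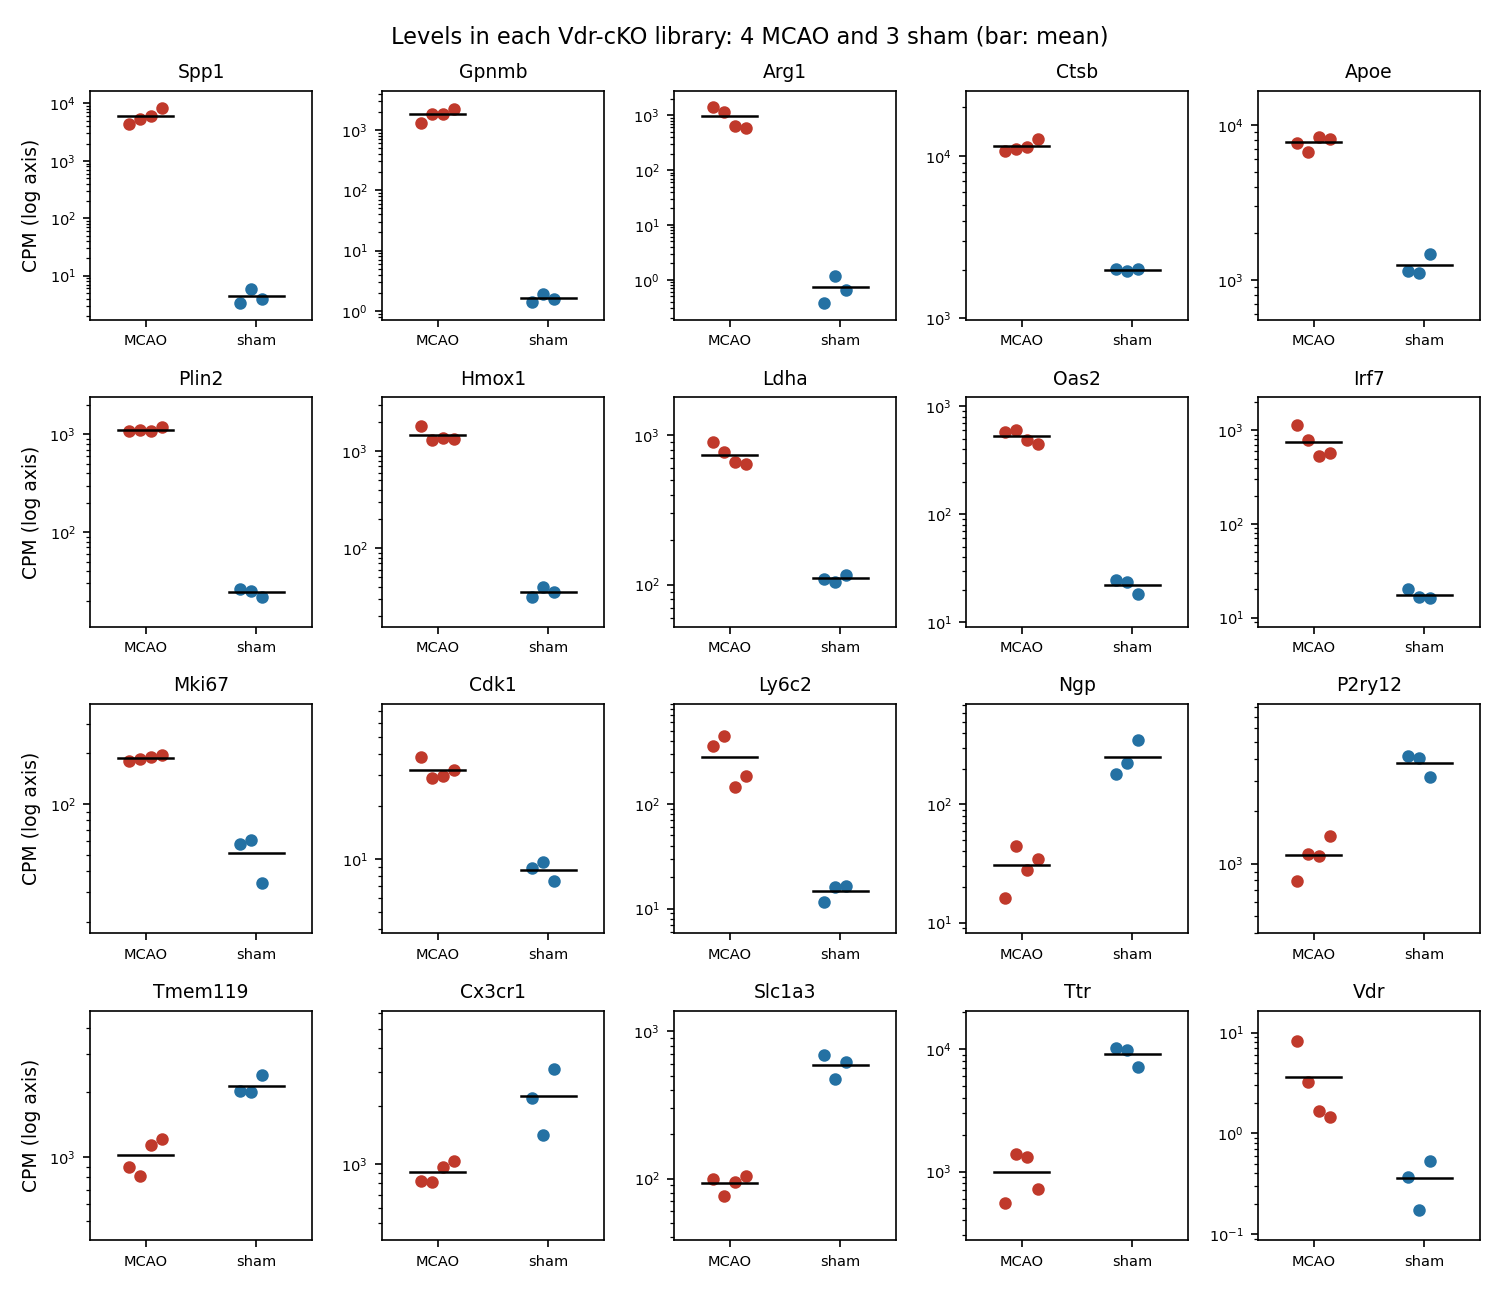
Each panel plots the level of 1 gene (CPM, log axis) in the 4 MCAO libraries, in red on the left, and the 3 sham libraries, in blue on the right, of Vdr-cKO mice, with the group mean as a bar. The groups are apart in all 20 panels.

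**Figure D3:**
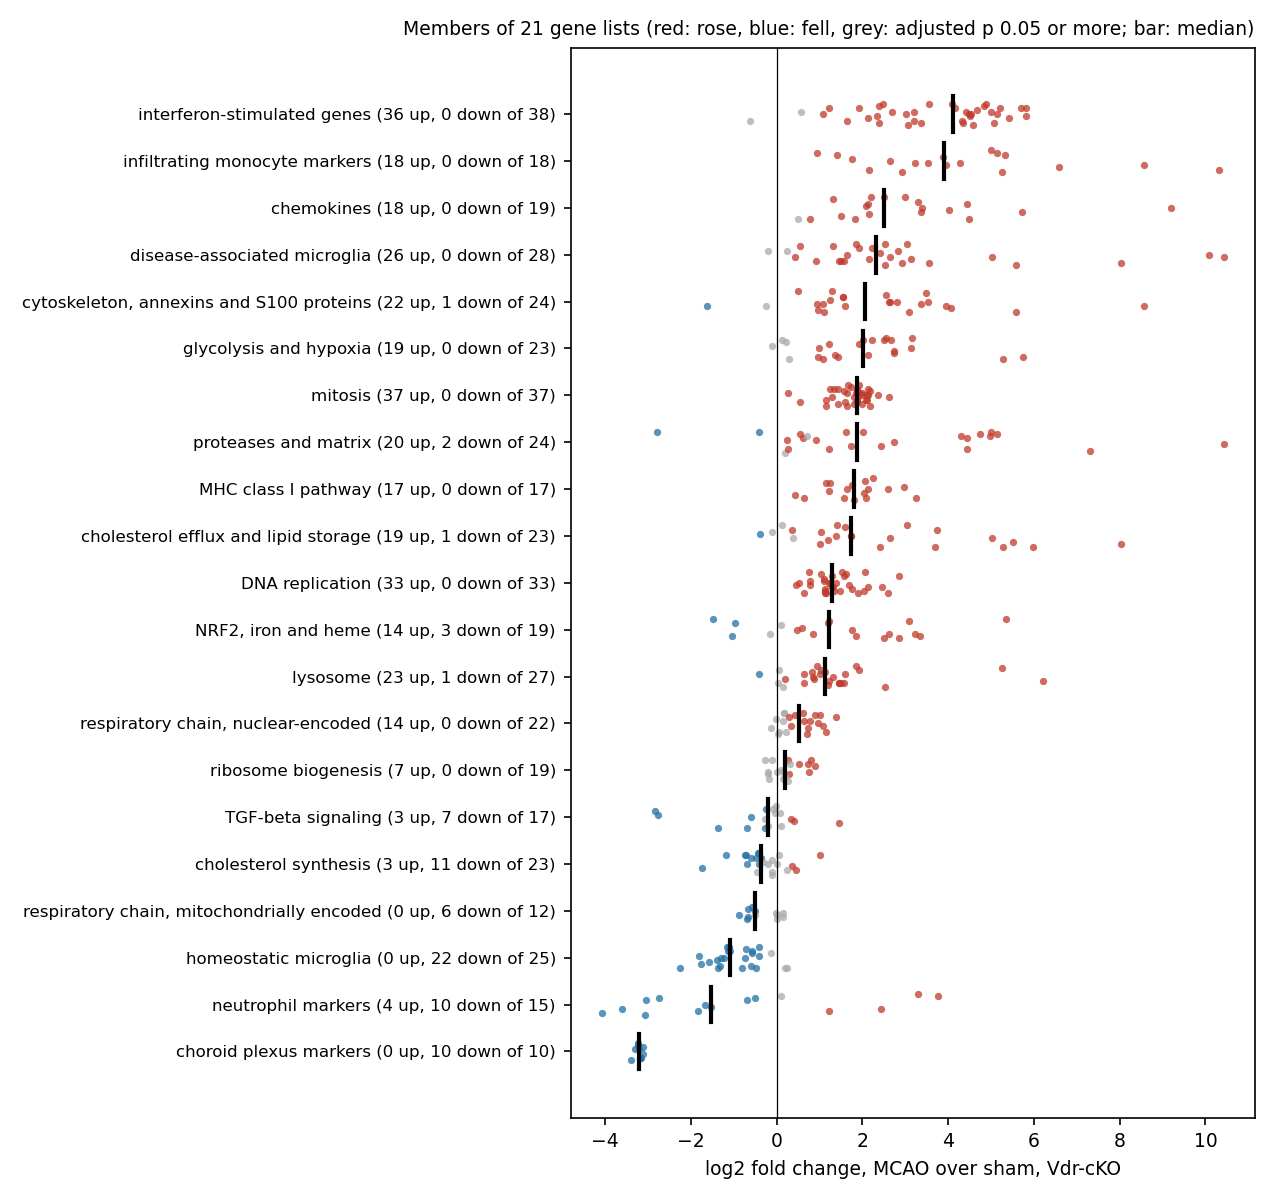
Points are the members of 21 gene lists, with the log2 fold change of MCAO over sham in Vdr-cKO microglia/macrophages on the x axis, and black bars are list medians. Red points rose, blue points fell and grey points had an adjusted p of 0.05 or more. ISGs have the highest median (4.12) and choroid plexus markers the lowest (-3.20).

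Interferon-stimulated genes formed the list with the highest median. Of 38 members 36 rose and 0 fell, with a median of 4.12 and all 36 as DEGs. Oas2, an enzyme that senses double-stranded RNA, had 575, 603, 484 and 448 CPM after MCAO and 24.4, 23.7 and 18.2 CPM after sham (log2 fold change 4.57 ± 0.16, adjusted p = 2.31e-08). Irf7, a regulator that boosts the interferon response (chromosome 7, 141262706 to 141266481), had 1129, 794, 529 and 571 CPM after MCAO and 20.2, 16.5 and 16 CPM after sham (log2 fold change 5.42 ± 0.29, adjusted p = 2.93e-07). Isg15, a ubiquitin-like protein attached to other proteins, had 349.8, 180.5, 78.2 and 83.1 CPM after MCAO and 3.15, 3.65 and 3.2 CPM after sham (log2 fold change 5.69 ± 0.59, adjusted p = 1.81e-05). In each of the 3 genes MCAO replicates 1 and 2 were above 3 and 4, as in 37 of the 38 members, and replicates 3 and 4 were in turn above every sham library. Bst2, which tethers virus particles (3.20), Ifi27l2a, an interferon-induced mitochondrial protein (4.32), Xaf1, a proapoptotic factor (2.68), and the Oas-like Oasl2 (4.84) rose as well. The transducers Stat2 (3.06) and Irf9 (1.08) rose by less than the median member. Gbp7 (0.57) and Tgtp1 (-0.61) did not pass. Without MCAO replicates 1 and 2, 36 members rose, 1 fell and the median was 3.47. Paralogs of the Oas, Ifit, Gbp and Tgtp families are alike in sequence, and their counts may share reads.

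The promoters of these genes are shown because members moved together. Windows from 250 bases before to 50 after the start site came from RefSeq on GRCm38.p6, and 27 of the 38 ISGs had one. The core of the interferon-stimulated response element, searched as GAAANNGAAA on both strands, stood in 19 of these 27 (70.4%), against 3.92% of the 11426 genes tested that had a window. The 2 windows below, each written on the strand of its gene, have the matching bases in capitals. Isg15 (minus strand) has 3 overlapping matches, the first 78 bases before the start site, and Bst2 (minus strand) has 2, the first 130 bases before it.
Isg15 chr4:156200769-156201068: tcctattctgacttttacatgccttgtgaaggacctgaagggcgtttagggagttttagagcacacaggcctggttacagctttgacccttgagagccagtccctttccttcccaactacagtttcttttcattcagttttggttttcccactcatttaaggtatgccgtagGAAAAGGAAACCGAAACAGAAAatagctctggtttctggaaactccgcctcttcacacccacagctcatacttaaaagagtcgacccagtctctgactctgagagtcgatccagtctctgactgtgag
Bst2 chr8:71537423-71537722: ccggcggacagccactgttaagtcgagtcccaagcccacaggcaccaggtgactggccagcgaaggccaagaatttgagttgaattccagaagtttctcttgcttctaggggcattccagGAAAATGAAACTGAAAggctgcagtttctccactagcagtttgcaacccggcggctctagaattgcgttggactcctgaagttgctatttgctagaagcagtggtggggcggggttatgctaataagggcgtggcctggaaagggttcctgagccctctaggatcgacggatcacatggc
The 19 genes with a match had a median log2 fold change of 3.20 and the 8 without one 4.87. A match is a stretch of letters and was not tested as a binding site.

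The MHC class I pathway, which displays peptides from inside the cell to T cells, rose as a whole. All 17 members rose, 15 as DEGs, with a median of 1.82. H2-T23, a nonclassical class I molecule, had 562, 465, 508 and 518 CPM after MCAO and 144, 128 and 163 CPM after sham (log2 fold change 1.82 ± 0.11, adjusted p = 6.47e-07). Nlrc5, the transactivator of class I genes, had 354, 301, 236 and 217 CPM after MCAO and 31, 30.5 and 26.1 CPM after sham (log2 fold change 3.24 ± 0.18, adjusted p = 3.43e-07), and the peptide transporter Tap1 had 468, 335, 347 and 337 CPM after MCAO and 93.6, 83.1 and 85.3 CPM after sham (log2 fold change 2.09 ± 0.14, adjusted p = 8.48e-07). These members did not share 1 order of the MCAO libraries, since 3 of 17 were higher in replicates 1 and 2 and 6 lower. H2 genes are close paralogs and may share reads. Of 12 class II and costimulatory genes 8 rose, by less, for example H2-Ab1 (1.11), H2-Aa (0.86), their transactivator Ciita (1.44) and the T cell inhibitory ligand Cd274 (2.96). The costimulators Cd80 (-0.24) and Cd86 (-0.07) did not pass.

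Of 19 chemokines 18 rose and 0 fell (median 2.51). Ccl2, which recruits monocytes, had 153, 151, 102 and 92.1 CPM after MCAO and 12.8, 11.5 and 11.3 CPM after sham (log2 fold change 3.39 ± 0.20, adjusted p = 5.32e-07), and Cxcl10, an interferon-induced attractant of T cells, had 375, 192, 60.1 and 69.2 CPM after MCAO and 8.02, 8.11 and 7.95 CPM after sham (log2 fold change 4.43 ± 0.64, adjusted p = 0.000175). Cxcl16 (2.15), Ccl3 (2.08) and Ccl4 (2.14) rose too, with 158, 144, 164 and 153 CPM of Ccl3 after MCAO and 38.4, 38.1 and 33.2 CPM after sham. Ccl22, which attracts regulatory T cells, did not pass (0.49). Of 15 cytokines 9 rose and 1 fell. Il1b had 1015, 1013, 429 and 372 CPM after MCAO and 43.3, 53.7 and 57.3 CPM after sham (log2 fold change 3.78 ± 0.39, adjusted p = 1.59e-05), and Il1rn, which blocks its receptor, rose by 4.98. Tnf had 133, 211, 87.1 and 61.4 CPM after MCAO and 17.3, 22.1 and 17 CPM after sham (log2 fold change 2.71 ± 0.37, adjusted p = 0.000118). Il6 was the member that fell, to 5.12, 8.83, 3.82 and 3.93 CPM after MCAO, against 12.1, 14.4 and 11.8 CPM after sham (log2 fold change -1.24 ± 0.27, adjusted p = 0.00255). Il1b and Il1rn were higher in MCAO replicates 1 and 2 than in 3 and 4, and 9 of the 15 cytokines shared that order. Ifng, Ifnb1, Csf2, Csf3 and Il12a had too few counts to be tested, so none of the interferons on the list was tested here.

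Cell cycle genes rose. All 37 genes of mitosis rose (35 as DEGs, median 1.88), as did all 33 genes of DNA replication (27 as DEGs, median 1.30). Mki67, a marker of cycling cells (chromosome 7, 135689784 to 135716361), had 181, 184, 189.7 and 196 CPM after MCAO and 57.5, 61 and 34 CPM after sham (log2 fold change 1.88 ± 0.18, adjusted p = 8.35e-06). Cdk1, the kinase that starts mitosis, had 38.3, 28.8, 29.7 and 32.4 CPM after MCAO and 8.88, 9.67 and 7.53 CPM after sham (log2 fold change 1.89 ± 0.15, adjusted p = 2.47e-06), and Top2a, which untangles replicated DNA, had 124, 123, 110.4 and 118 CPM after MCAO and 40.5, 35.5 and 20.3 CPM after sham (log2 fold change 1.89 ± 0.19, adjusted p = 1.64e-05). In all 3 genes the MCAO libraries were close together, and sham replicate 3 was lowest of its group. The cyclins Ccna2 (2.01) and Ccnb1 (2.37), the spindle checkpoint kinase Bub1b (1.93) and the ubiquitin ligase subunit Ube2c (2.61) rose by similar amounts. Of the replication genes, Rrm2, a subunit of ribonucleotide reductase, rose by 2.45 on the log2 scale, the licensing factor Cdt1 by 1.75, the clamp Pcna by 1.33 and the replication initiation factor Mcm10 by 2.86. Among regulators, the inhibitor Cdkn1a rose (379, 323, 297 and 281 CPM after MCAO and 97.8, 125 and 75.9 CPM after sham, log2 fold change 1.68 ± 0.17, adjusted p = 1.41e-05), with 14 of 18 p53 targets, while Cdkn1c fell (-2.78).

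Promoters of mitotic genes often carry a cell cycle homology region, read here as TTTGAA, with CCAAT boxes upstream. Of the 30 mitosis genes with a RefSeq window, 21 held TTTGAA (70%), against 14.9% of the genes tested, and 22 held CCAAT (73.3%), against 42.5%, both strands being searched. The windows of Cdk1 (minus strand) and Bub1b (plus strand) have TTTGAA and CCAAT in capitals, and CCAAT on the other strand reads as ATTGG.
Cdk1 chr10:69352863-69353162: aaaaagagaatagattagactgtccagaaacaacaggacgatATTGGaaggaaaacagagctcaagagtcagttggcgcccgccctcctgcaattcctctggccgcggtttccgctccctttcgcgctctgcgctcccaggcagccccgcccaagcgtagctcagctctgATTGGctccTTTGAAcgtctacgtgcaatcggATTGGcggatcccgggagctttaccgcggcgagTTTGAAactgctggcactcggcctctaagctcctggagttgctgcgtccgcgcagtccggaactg
Bub1b chr2:118597961-118598260: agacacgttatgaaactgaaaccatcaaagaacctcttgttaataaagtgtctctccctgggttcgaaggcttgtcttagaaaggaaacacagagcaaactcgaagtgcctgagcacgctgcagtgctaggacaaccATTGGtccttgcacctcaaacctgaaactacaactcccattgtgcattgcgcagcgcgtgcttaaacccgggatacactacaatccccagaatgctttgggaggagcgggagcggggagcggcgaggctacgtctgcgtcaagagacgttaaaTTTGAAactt
The 21 genes with TTTGAA had a median log2 fold change of 1.88 and the 9 without it 1.86. ISREs, searched in the same way, stood in 2 of the 30 mitosis windows.

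Of 23 genes of cholesterol efflux and lipid storage 19 rose and 1 fell (median 1.74), whereas of 23 genes of cholesterol synthesis 11 fell and 3 rose (median -0.36). The number that fell was 6 without sham replicate 2 and 7 without sham replicate 1 (medians -0.28 and -0.29). Plin2, the coat protein of lipid droplets, had 1081, 1121, 1081 and 1201 CPM after MCAO and 26.3, 25.3 and 21.7 CPM after sham (log2 fold change 5.52 ± 0.13, adjusted p = 4.43e-09). The fatty acid receptor Cd36 had 238, 306, 281 and 366 CPM after MCAO and 23.8, 25.3 and 18 CPM after sham (log2 fold change 3.73 ± 0.18, adjusted p = 1.47e-07). The groups were far apart in both. Hilpda, a droplet protein induced by hypoxia (5.29), the lipoprotein lipase Lpl (3.03), the liver X receptor Nr1h3 (3.69), Fabp4 (5.98) and the cholesterol exporters Abca1 (1.01) and Abcg1 (1.04) rose. On the synthesis side, the enzymes Lss (-1.17) and Sqle (-0.73) fell, while Mvd rose (1.01). Mylip, which degrades the LDL receptor, was the storage and efflux gene that fell (-0.39).

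Of 27 lysosomal genes 23 rose and 1 fell (median 1.14). Ctsk, a collagen-degrading cathepsin, had 41.1, 58.4, 49.4 and 51.6 CPM after MCAO and 0.987, 1.27 and 1.66 CPM after sham (log2 fold change 5.25 ± 0.20, adjusted p = 2.77e-08), while Atp6v1a, a subunit of the proton pump, had 349, 352, 307 and 337 CPM after MCAO and 107, 117 and 108 CPM after sham (log2 fold change 1.60 ± 0.09, adjusted p = 4.45e-07). The tetraspanin Cd63 rose too (1.91). Receptors for debris were divided: Msr1 (368, 330.4, 299 and 315 CPM after MCAO and 14.3, 16.3 and 13.3 CPM after sham, log2 fold change 4.48 ± 0.13, adjusted p = 7.66e-09) and Olr1 (3.31), both scavenger receptors, rose with Cd36 and Axl, while the sister kinases of Axl, Tyro3 (-2.48) and Mertk (-0.70), fell. Of 17 complement and Fc receptor genes 13 rose and 1 fell. Fcgr4, an activating IgG receptor, had 261, 206, 186 and 190.1 CPM after MCAO and 12.3, 13.8 and 12.6 CPM after sham (log2 fold change 4.03 ± 0.15, adjusted p = 2.43e-08). The complement component C4b (2.53) and properdin, Cfp (3.12), rose too.

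Iron and antioxidant genes rose together. Hmox1, which opens heme to release iron, had 1801, 1298, 1372 and 1348 CPM after MCAO and 31.1, 39.8 and 35.3 CPM after sham (log2 fold change 5.36 ± 0.17, adjusted p = 1.3e-08). The ferritin subunits Ftl1 (3331, 2647, 2784 and 2883 CPM after MCAO and 284, 271 and 297 CPM after sham, log2 fold change 3.35 ± 0.12, adjusted p = 2.48e-08) and Fth1 (3.09) followed, and the iron exporter Slc40a1 fell (-0.97). Of 19 genes of this list 14 rose and 3 fell (median 1.22). The other 2 that fell were the hemoglobin receptor Cd163 (-1.05) and Nqo1, a quinone reductase (-1.48), although the NRF2 targets Srxn1 (3.22) and Prdx1 (2.50) rose.

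Glycolysis rose as a block. Of 23 genes of glycolysis and hypoxia 19 rose and 0 fell (median 2.02). Ldha, which makes lactate, had 895, 770.1, 665 and 637 CPM after MCAO and 109.6, 105 and 117 CPM after sham (log2 fold change 2.74 ± 0.14, adjusted p = 1.76e-07), and the pyruvate kinase Pkm had 2453, 1741, 1786 and 1677 CPM after MCAO and 321, 303 and 358 CPM after sham (log2 fold change 2.54 ± 0.16, adjusted p = 6.06e-07). Tpi1 (2.66), Pgam1 (2.49) and Vegfa, the angiogenic factor induced by hypoxia (3.12), rose as well. In 17 of the 23 genes, Ldha included, MCAO replicates 1 and 2 were above 3 and 4, and without those 2 libraries 19 still rose (median 1.81). The hexokinases Hk1 (0.22) and Hk2 (0.14) did not pass. Of 22 nuclear genes of the respiratory chain 14 rose and 0 fell, by little (median 0.52, with Cox5a highest at 1.38).

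Genes of the mitochondrial genome went the other way. Of the 12 tested 6 fell and 0 rose (median -0.51), all of them subunits of complex I or cytochrome b. mt-Nd5 had 1413, 1685, 1304 and 1857 CPM after MCAO and 2521, 2972 and 1939 CPM after sham (log2 fold change -0.67 ± 0.17, adjusted p = 0.00555), and mt-Cytb had 1826, 1554, 1859.9 and 2378 CPM after MCAO and 3315, 3483 and 2409 CPM after sham (log2 fold change -0.69 ± 0.17, adjusted p = 0.00459). Sham replicate 3 was the lowest sham library in both. Subunits of cytochrome oxidase were near 0 on the log2 scale, with mt-Co1 at 0.15. The call of mt-Nd4 (-0.50) was lost without MCAO replicate 3, sham replicate 1 or sham replicate 2, with adjusted p = 0.0566, 0.0713 and 0.088, and without both MCAO replicates 1 and 2 (adjusted p = 0.0656), and that of mt-Nd1 without sham replicate 2 (adjusted p = 0.0621).

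Genes of migration and tissue remodeling rose broadly. Of 24 cytoskeleton, annexin and S100 genes 22 rose and 1, the bundling protein Fscn1, fell (-1.63), with a median of 2.07. Lgals3, a sugar-binding galectin of activated phagocytes, had 985, 669, 648 and 762 CPM after MCAO and 12.8, 16.3 and 18.5 CPM after sham (log2 fold change 5.59 ± 0.21, adjusted p = 2.54e-08), and Anxa2, an annexin of the plasma membrane, had 372, 314, 258 and 259 CPM after MCAO and 14.5, 17.5 and 21.2 CPM after sham (log2 fold change 4.08 ± 0.19, adjusted p = 1e-07). Of 24 proteases and matrix genes 20 rose and 2 fell (median 1.88), led by Spp1, Mmp12, Fn1, fibronectin (5.13), and the sheddase Adam8 (4.73). Timp3, an inhibitor of matrix proteases, fell (-2.79), whereas Timp1 rose (4.98). Among integrins, Itga5 (2.25) and Itgb7 (3.23) rose and Itga9 fell (-1.24). Of 15 purine receptors and ectonucleotidases 7 rose and 6 fell (median 0.17), against 29.3% and 28.8% of all genes tested. The homeostatic P2ry12 and P2ry13 fell while P2ry2 (3.95) and the ATP channel P2rx4 (1.35) rose. Gpr34, a homeostatic receptor that is not one for purines, fell too (-1.39). Of the inducible enzymes of lipid and nitric oxide signaling, Ptgs2, cyclooxygenase 2, had 302, 461, 170.3 and 108 CPM after MCAO and 15.4, 15.6 and 19.5 CPM after sham (log2 fold change 3.95 ± 0.45, adjusted p = 3.6e-05), and Nos2, the inducible nitric oxide synthase, had 33.8, 24.7, 11.6 and 7.66 CPM after MCAO and 0.247, 0 and 0.356 CPM after sham (log2 fold change 6.55 ± 0.76, adjusted p = 3.66e-05). The MCAO libraries of both genes were widely spread, with replicates 1 and 2 highest. Pla2g7, which inactivates platelet activating factor, was tighter (352, 441, 364 and 354 CPM after MCAO and 25.8, 23.5 and 21.7 CPM after sham, log2 fold change 3.99 ± 0.13, adjusted p = 1.29e-08).

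Of 19 transcription factors 6 rose and 6 fell, close to the shares of all genes tested (29.3% and 28.8%). Bhlhe40, a repressor of activated macrophages, had 119, 165, 110.0 and 103 CPM after MCAO and 15.1, 13 and 11.7 CPM after sham (log2 fold change 3.22 ± 0.18, adjusted p = 3.43e-07), and Cebpb (2.26), Batf (2.01) and Tfec (3.03) rose. Mef2c (-0.82) and Sall1, both of resting microglia, fell, and Irf8, the lineage factor, stayed at -0.02. Of 16 immediate early genes, which dissociation of tissue can also induce, 9 rose and 2 fell, against the same shares of all genes. Fos had 936, 1344, 771 and 719 CPM after MCAO and 479.9, 530.3 and 489 CPM after sham (log2 fold change 0.91 ± 0.19, adjusted p = 0.00222). In 10 of the 16, Fos included, MCAO replicates 1 and 2 were above 3 and 4, against 20.1% of all genes tested. The part of immediate early genes in other results was not tested.

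Markers of other cells were measured next to these lists. All 18 markers of infiltrating monocytes rose (median 3.91), and their summed level was 6030 to 14392 CPM after MCAO and 412 to 529 CPM after sham. Ly6c2, which marks inflammatory monocytes (chromosome 15, 75108158 to 75111970), had 355, 450.3, 147 and 183 CPM after MCAO and 11.6, 15.9 and 16.5 CPM after sham (log2 fold change 4.27 ± 0.40, adjusted p = 8.92e-06). Ccr2, the receptor for Ccl2, had 307, 328, 153 and 168 CPM after MCAO and 38.8, 33.3 and 22.7 CPM after sham (log2 fold change 2.91 ± 0.31, adjusted p = 1.94e-05), and Plac8 had 364, 274, 106 and 114 CPM after MCAO and 5.24, 5.56 and 5.81 CPM after sham (log2 fold change 5.27 ± 0.49, adjusted p = 7.96e-06). S100a4 had 0 counts in all sham libraries and 5.81, 3.37, 1.43 and 1.27 CPM after MCAO. The markers include Arg1, Vim, Fn1, Cd44 and Thbs1, which activated microglia also express. How much of the other gains came from monocytes was not tested. Without MCAO replicates 1 and 2, 17 of 18 rose (median 3.45), as did 27 of 28 disease-associated genes and 37 of 37 mitosis genes.

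The marker lists below are to be read beside all genes tested, of which 29.3% rose and 28.8% fell. Of 15 neutrophil markers 10 fell and 4 rose. Ngp, a granule protein of immature neutrophils, stood at 16.2, 44.2, 28.1 and 34.4 CPM after MCAO and 182, 223 and 354 CPM after sham (log2 fold change -3.05 ± 0.31, adjusted p = 1.4e-05), and the granule proteins Camp (-3.06) and Ltf (-2.75), the surface antigen Ly6g (-1.83) and Retnlg (-1.53) fell too. The 4 that rose were the receptors Cxcr2 (3.29) and Il1r2 (3.76) and the granule proteases Mmp9 (2.43) and Mmp8 (1.22). The summed level of the 15 markers overlapped (1897 to 2410 CPM after MCAO and 1928 to 2789 CPM after sham). Of 10 border macrophage markers 5 rose and 4 fell, with Ms4a7 (2.78) and Pf4 (3.36) highest and Cd209f lowest (-1.72). Of 15 lymphocyte markers 5 could be tested. Their summed level was 176 to 254 CPM after MCAO and 390 to 433 CPM after sham, nearly all from the immunoglobulin heavy chain Ighm, which fell (-1.08). Without Ighm the sums overlapped, with 17.2 to 35.2 CPM after MCAO and 22.2 to 26.3 CPM after sham. Cd8a (2.97) and the granzyme Gzmb (2.93) rose at low levels. Without MCAO replicate 2, 3 or 4 both had too few counts to be tested, and 0 markers rose. Both calls were lost without sham replicate 2 or 3 (adjusted p up to 0.0873 for Cd8a) and with limma-voom. That of Cd8a was also lost with the replicate block. The T cell genes Cd3e, Cd3d and Cd3g were too low to test, and MCAO replicate 3 had the most Cd8a (0.207, 0.953, 3.76 and 0.866 CPM after MCAO and 0.37, 0.174 and 0 CPM after sham). Summed neuron markers were 3.39 to 5.73 CPM after MCAO and 10.5 to 11.6 CPM after sham. Of 9 astrocyte markers 3 rose and 3 fell, close to the shares of all genes tested. Among those that rose, Gfap had 8.71, 8.07, 6.27 and 7.06 CPM after MCAO and 0.555, 1.39 and 1.72 CPM after sham (log2 fold change 2.60 ± 0.33, adjusted p = 6.39e-05). The summed level of the 9 was 111 to 135 CPM after MCAO and 524 to 746 CPM after sham, and 31.2 to 37.4 CPM after MCAO and 50.8 to 57.4 CPM after sham without Slc1a3. Of 8 oligodendrocyte lineage genes 4 rose and 3 fell, with Cspg4 highest (2.27). Of 10 endothelial and mural genes 2 rose and 6 fell, and 7 of the 10 were higher in MCAO replicates 2 and 3 than in 1 and 4.

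**Figure D4:**
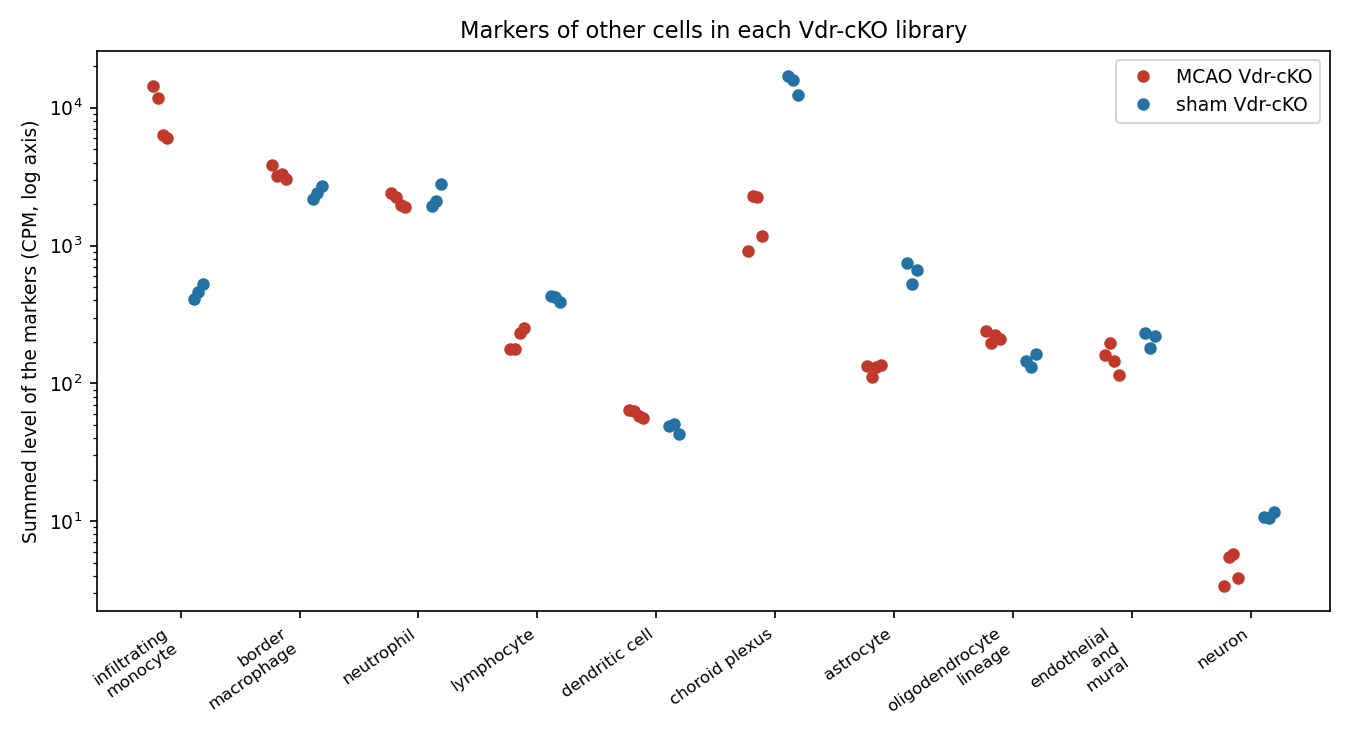
The summed level (CPM, log axis) of each list of markers of other cells is shown for the 4 MCAO libraries in red, left of the 3 sham libraries in blue. Monocyte markers are higher after MCAO and highest in replicates 1 and 2, the sums of choroid plexus markers and of astrocyte markers, which are mostly Slc1a3, are higher after sham, and neutrophil markers overlap.

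Most of the response was shared with control mice. Of 16089 genes tested there, 2054 DEGs were higher (12.8%) and 2383 lower (14.8%), and 1700 higher and 1806 lower DEGs were common to the genotypes. These are counts over separate mice. For the homeostatic list the medians were -1.09 in Vdr-cKO and -0.96 in control mice, for the disease-associated list 2.32 and 2.12, for glycolysis 2.02 and 2.07 and for the lysosome 1.14 and 1.09, with 1 of the members of these 4 lists (Axl) differing between genotypes. The difference itself, the change in Vdr-cKO minus the change in control mice, was tested in 1 fit of 16 libraries. It passed an adjusted p of 0.05 with a positive sign for 243 of 17335 genes (1.4%) and with a negative sign for 199 (1.15%), of which 159 (0.917% of genes tested) and 102 (0.588%) exceeded 1 on the log2 scale. Column names of the sham control libraries carry a read-file ending that the rest lack. Whether these libraries were handled apart is not known. Any such handling could not be told apart from surgery within control mice or from genotype within sham mice. It would enter the change in control mice and every difference between genotypes. Sham control replicates 2, 4 and 5 were closer to one another than other pairs of that group (chi-square of the counts per degree of freedom 4.56 to 10.2, against 17.7 to 28.4), so values without these 3 libraries are given too.

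The ISGs rose more in Vdr-cKO than in control mice. The difference was positive for 35 of 38 members (median difference 1.83, median changes 4.12 and 1.82). It was positive for 28 with limma-voom and for 5 in a test against an absolute difference of 1. Irf7 averaged 756 CPM after MCAO and 17.6 CPM after sham in Vdr-cKO mice, and 78.6 and 12.3 CPM in control mice (difference 2.77 ± 0.29, adjusted p = 4.96e-05). The means were further apart after MCAO than after sham. Oas2 (2.31 ± 0.22), Bst2 (1.66 ± 0.17), and, outside the list, Ifi213, an interferon-induced DNA-binding protein (3.00 ± 0.29), and Tgtp2, an interferon-induced GTPase (3.03 ± 0.32), had differences of the same sign. Tgtp2 did not pass in control mice (0.06, adjusted p = 0.856). Members of the MHC class I pathway followed, with 12 of 17 positive and 0 negative, for example H2-T23 (1.61 ± 0.20, adjusted p = 0.000177). In the test against an absolute difference of 1, 0 of the 17 passed. Of 19 chemokines 3 differed, Ccl2 (2.03), Ccl5 (2.06) and Ccl7 (2.05). Of 18 monocyte markers 3 differed, Ly6c2 (3.07), Plac8 (2.59) and Ms4a4c (2.54), and the median difference of the 18 was 0.61. Their summed level after MCAO overlapped between genotypes, with 6030 to 14392 CPM in Vdr-cKO and 8143 to 11571 CPM in control mice. Without MCAO Vdr-cKO replicates 1 and 2 the difference was positive for 34 ISGs (median 1.31) and 14 class I genes, and without sham control replicates 2, 4 and 5 for 26 and 7. Without those 3 sham libraries 1 monocyte marker passed. Without MCAO Vdr-cKO replicates 1 and 2 the difference was positive for 3 of the 18 monocyte markers and negative for 2 (median 0.14).

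Genes of mitosis rose less in Vdr-cKO than in control mice. The difference was negative for 26 of 37 members and positive for 1, Pttg1 (median difference -1.75, median changes 1.88 and 3.49), and negative for 7 of 33 replication genes. For replication genes it was 4 or fewer without any of MCAO Vdr-cKO replicates 2, 3 and 4, sham Vdr-cKO replicates 1 and 2 and sham control replicates 4 and 5, down to 1 without sham Vdr-cKO replicate 1, and 2 without sham control replicates 2, 4 and 5. Mki67 averaged 188 ± 6.73 CPM after MCAO and 50.8 ± 14.6 CPM after sham in Vdr-cKO mice, and 287 ± 99.7 and 15.8 ± 4.23 CPM in control mice (SD; n = 4, 3, 4 and 5). The sham libraries of Vdr-cKO mice (lowest 34 CPM) all lay above those of control mice (highest 22.3 CPM), and every MCAO library of Vdr-cKO mice lay below every MCAO library of control mice (lowest 211 CPM). The difference was -2.28 ± 0.31 (adjusted p = 0.000457). Ccnb1 (-2.84 ± 0.38), Aspm (-2.55 ± 0.36) and Tpx2 (-2.20 ± 0.31), all of the spindle or its timing, had the same sign. The count of mitosis genes with a negative difference was 23 without MCAO Vdr-cKO replicates 1 and 2 and 19 without sham control replicates 2, 4 and 5. With limma-voom it was 23, and in a test against an absolute difference of 1 it was 4. Unlike Mki67, the summed level of the 37 mitosis genes overlapped after MCAO, with 1231 to 1341 CPM in Vdr-cKO and 1270 to 2348 CPM in control mice. After sham the sums were apart, with 307 to 469 CPM in Vdr-cKO and 190 to 217 CPM in control mice.

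Of the 12 transcripts of the mitochondrial genome, 6 fell and 0 rose in Vdr-cKO mice, while 0 fell and 10 rose in control mice (median 0.57), where 32.3% of all genes fell and 31.2% rose. The difference was negative for 4 of 12, mt-Nd1, mt-Nd4, mt-Nd5 and mt-Cytb. For mt-Cytb it was -1.20 ± 0.24 (adjusted p = 0.00869), with 1904 CPM after MCAO and 3069 CPM after sham in Vdr-cKO mice and 3306 and 2289 CPM in control mice. No member was called without MCAO Vdr-cKO replicates 1 and 2 (adjusted p = 0.0541 for mt-Cytb) or without sham control replicates 2, 4 and 5 (adjusted p = 0.091), although the median difference of the 12 was -0.95 and -0.70 in these fits, against -0.99 with all libraries. With 1 library left out the difference was called for 2 (without MCAO Vdr-cKO replicate 3, sham Vdr-cKO replicate 1 or 2, or MCAO control replicate 3 or 4) to 8 transcripts (without sham control replicate 3). In Vdr-cKO mice 3 of the 12 fell without sham replicate 2, and in control mice 6 rose without MCAO replicate 4 or sham replicate 2 and 4 without sham replicates 2, 4 and 5 (median 0.26).

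**Figure D5:**
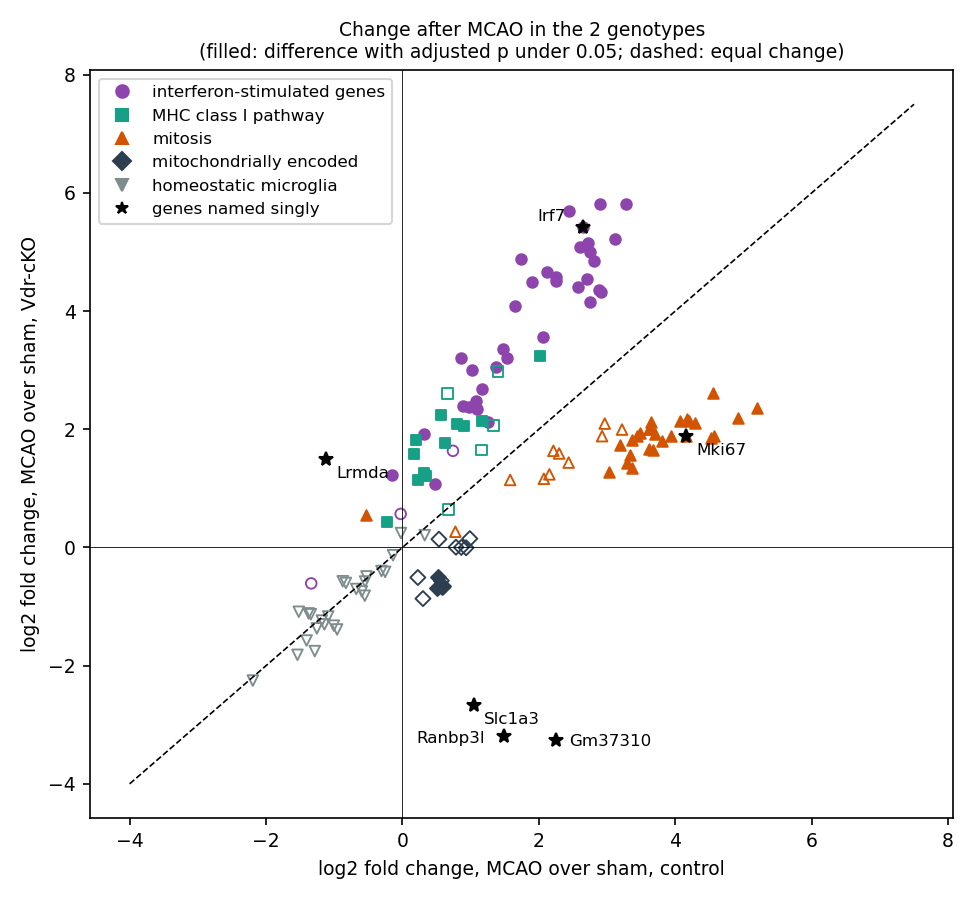
The log2 fold change of MCAO over sham in control mice (x axis) is set against that in Vdr-cKO mice (y axis) for members of 5 lists and 6 single genes. List members drawn filled have a difference with an adjusted p under 0.05, which 35 of 38 ISGs and 12 of 17 MHC class I genes have above the dashed line of equal change and 26 of 37 mitosis genes below it.

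Among the genes tested in both genotypes, 4 were DEGs in opposite directions, and 3 of them are neighbors on chromosome 15. Slc1a3, which clears glutamate and is abundant in astrocytes (8634124 to 8710764), had 99.8, 76.3, 94.3 and 104 CPM after MCAO and 689, 472 and 617 CPM after sham in Vdr-cKO mice (log2 fold change -2.67 ± 0.15, adjusted p = 2.95e-07). In control mice it rose by 1.05 on the log2 scale (adjusted p = 0.0179), with means of 314 CPM after MCAO and 149 CPM after sham, and the difference was -3.72 ± 0.46 (adjusted p = 0.000186), which passed in all 26 alternatives. The call in control mice was lost without MCAO control replicate 2 (0.78, adjusted p = 0.0706) or 4 (0.75, adjusted p = 0.0772), without sham control replicates 2, 4 and 5 (0.96, adjusted p = 0.136), with limma-voom (0.79, adjusted p = 0.0723) and with the replicate block (0.74, adjusted p = 0.105). Its neighbor Ranbp3l (8967949 to 9067335), a SMAD-binding protein, had 1.73, 1.02, 1.13 and 0.933 CPM after MCAO and 11.5, 8.28 and 13.3 CPM after sham in Vdr-cKO mice (difference -4.68 ± 0.48, adjusted p = 4.81e-05). Gm37310 (8652106 to 8655073), a model that GENCODE types as TEC inside Slc1a3 on the same strand, whose reads may be shared with it, had 7.33, 3.56, 4.84 and 4 CPM after MCAO and 44.9, 36 and 59.5 CPM after sham (difference -5.51 ± 0.61). In all 3 genes the Vdr-cKO groups did not overlap, and the MCAO control libraries had 118 to 496 CPM of Slc1a3. Of the remaining 8 astrocyte markers, 0 passed the test of the difference between genotypes. Lrmda, a gene of melanocyte differentiation on chromosome 14, was the fourth, with 1.59, 4.83, 4.18 and 5.46 CPM after MCAO and 1.91, 1.27 and 1.07 CPM after sham in Vdr-cKO mice (log2 fold change 1.50 ± 0.41, adjusted p = 0.0095) and a fall of 1.12 on the log2 scale in control mice (adjusted p = 0.0274), which was lost in 5 of the 9 fits that each left out 1 control library. Its Vdr-cKO groups overlapped, its adjusted p for the difference was 0.0269, and the call was lost in 9 of the 16 fits that each left out 1 library.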

How the data were processed

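RNA-seq was done on microglia/macrophages of 16 samples, 7 of them Vdr-cKO. The authors deposited 1 table of raw counts per gene with 1 column per sample, and per the labels bcl2fastq, HISAT2 2.1.0, TopHat and limma were named with GRCm38, without roles. The counter, annotation and strand setting are not given in the sources used here. The sources differ on library preparation (poly-A selection or rRNA depletion), which can move transcripts without a poly-A tail.

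From the 32166 genes, those kept by edgeR's filterByExpr were tested with edgeR 4.0.16 (R 4.3.3, TMM factors, quasi-likelihood test, Benjamini-Hochberg adjustment over all genes tested): 4 MCAO against 3 sham Vdr-cKO libraries, 4 MCAO against 5 sham control libraries, and the difference of these changes in 1 fit of all 16. The scripts were checked on simulated counts. The unit of every level is CPM from TMM-scaled library sizes. Positions were taken from GENCODE M21 (GRCm38) by gene identifier (31489 matched), and promoter windows from RefSeq. Of the rows, 240 carried no symbol and were tested with the rest, taking 0.0669% to 0.0764% of counts in MCAO Vdr-cKO libraries. No pair of libraries agreed within sampling noise.

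The 47 gene lists hold 797 genes. The members and lists were chosen with earlier results of these data known. Genes were named by a rule: Vdr and Cx3cr1, the 15 DEGs with the highest and the 15 with the lowest log2 fold change (mean of at least 10 CPM in the higher group, groups apart), the 10 largest gains and 10 largest losses in CPM, up to 5 members per list with the smallest adjusted p and any marker of other cells, up to 10 genes in each direction of the genotype difference, and up to 5 with opposite directions. Isg15, Cxcl10, Il6, Tnf, Trem2, the choroid plexus list, the genes whose promoters are printed and the other list members named as examples or exceptions outside this rule were chosen after their values were seen. Some genes that the rule names are not reported here. Alternatives were RLE and upper quartile factors, other count filters, DESeq2 1.42.0, limma-voom (limma 3.58.1), edgeR's glmTreat with a threshold of 1, a fit of the whole series, a block on replicate numbers, and leaving out libraries.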

Additional observations from a re-analysis of the deposited data

Results flagged for a closer look

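In 77 sets of 4 or 5 library values that were examined, 4 held a library far from the others of its group, about the 1 in 20 that chance gives. Single genes were examined only in the MCAO Vdr-cKO group. In MCAO control and sham control only total counts, TMM factors and mitochondrial shares were examined. The group of the outliers was therefore set by what was examined, and all 4 were high. Replicate 1 had 1801 CPM of Hmox1, 2453 CPM of Pkm and 468 CPM of Tap1, and replicate 2 had 441 CPM of Pla2g7.

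The change after MCAO in Vdr-cKO mice minus that in control mice passed the test with an absolute difference above 1 for 159 genes with a positive and 102 genes with a negative sign (edgeR's quasi-likelihood test, adjusted p under 0.05). The values below are differences on the log2 scale of genes named in the report that passed that test, whatever their size. Among ISGs they were 3.25 for Isg15, 2.77 for Irf7, 2.31 for Oas2, 2.03 for Oasl2, 1.69 for Stat2, 1.66 for Bst2, 1.51 for Xaf1, 1.40 for Ifi27l2a and 0.60 for Irf9. Outside that list, the interferon-induced Tgtp2 had 3.03 and Ifi213 had 3.00. In the MHC class I pathway the differences were 1.61 for H2-T23, 1.29 for Tap1 and 1.22 for Nlrc5. Chemokines had 2.06 for Ccl5, 2.05 for Ccl7 and 2.03 for Ccl2, and monocyte markers had 3.07 for Ly6c2, 2.59 for Plac8 and 2.54 for Ms4a4c. Complement and Fc receptor genes had 1.04 for C4b and 0.79 for Fcgr4. Axl had 1.55 and the integrin Itgb7 had 1.53.

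Negative differences were found for genes of dividing cells, with -2.84 for Ccnb1, -2.55 for Aspm, -2.28 for Mki67, -2.20 for Tpx2, -2.06 for Top2a, -1.95 for Ube2c, -1.60 for Ccna2, -1.57 for Bub1b, -1.55 for Cdk1 and -1.48 for Rrm2, while Pttg1 had 1.08. Mitochondrial transcripts had -1.27 for mt-Nd1, -1.25 for mt-Nd5, -1.20 for mt-Cytb and -1.03 for mt-Nd4, and the cholesterol gene Sqle had -0.95. At the Slc1a3 locus the differences were -5.51 for Gm37310, -4.68 for Ranbp3l and -3.72 for Slc1a3, and Lrmda had 2.61. In 16 fits that each left out 1 library the call was lost 12 times for Rrm2, 11 times for mt-Nd4, 9 times each for C4b and Lrmda, 5 times for mt-Nd5 and 1 time for Sqle. Without sham control replicates 2, 4 and 5 it was lost for all of these but Rrm2 and for Isg15, Ly6c2, Plac8, mt-Nd1 and mt-Cytb, and without both MCAO Vdr-cKO replicates 1 and 2 for Rrm2 and the 4 mitochondrial transcripts. The causes of these differences were not tested.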

How the results depend on the processing

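Counts of DEGs in Vdr-cKO mice were 2350 higher and 2432 lower. Dropping the fold threshold gave 4796 and 4713, testing against a log2 fold change of 1 gave 1491 and 1425, and requiring at least 10 counts in every sample gave 1403 lower, with fewer genes tested. In control mice these settings gave 5024 higher and 5191 lower without the threshold, 1198 lower against a log2 fold change of 1 and 1371 lower with 10 counts. For the genotype difference they gave 243 and 199 without the threshold and 14 and 9 against a log2 fold change of 1. Without sham control replicates 2, 4 and 5 the difference passed for 103 genes with a positive and 46 with a negative sign. Leaving out 1 library gave 2145 to 2384 higher and 2242 to 2442 lower DEGs in Vdr-cKO mice, 1984 to 2126 and 2126 to 2470 in control mice, and 132 to 192 and 71 to 130 for the difference.

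Of 306 named genes called in Vdr-cKO mice, 220 kept their call in every setting and 290 in every setting other than the test against a log2 fold change of 1, and 0 reversed. For the difference, 14 of 53 kept it in every setting and 35 without that test. In control mice Lrmda turned to 0.0051 on the log2 scale without sham control replicates 2, 4 and 5 (adjusted p = 0.993), and the cause was not tested. Small counts of list members moved with 1 library left out. Rising members were 0 to 3 for lymphocyte markers (2 with all libraries), 1 to 3 for TGF-beta signaling (3) and 1 to 2 for endothelial and mural genes and for vitamin D receptor partners (2 each). Some of the fits did not test the lymphocyte genes Cd8a and Gzmb. Falling members were 0 to 4 for ion channels (4), 0 to 2 for Toll-like receptor genes (2), 1 to 2 for proteases and matrix, immediate early genes and vitamin D receptor partners (2 each) and 0 to 1 for lysosomal, lipid efflux and NADPH oxidase genes (1 each).

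Replicate numbers are shared by MCAO and sham libraries but did not pair them. Deviations of same-numbered Vdr-cKO libraries correlated at -0.14, 0.16 and 0.04. With the number as a block there were 2276 higher and 2374 lower DEGs, and the difference passed for 150 and 75 genes. Lrmda then missed the threshold in Vdr-cKO mice (adjusted p = 0.0654). Genes with few sham counts, such as Vdr with 18 in all, have the least certain fold changes.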

Other observations

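Further lists are given beside 29.3% of all genes that rose and 28.8% that fell in Vdr-cKO mice after MCAO. Of 16 genes of the integrated stress response and serine synthesis 12 rose and 0 fell (median log2 fold change 0.79), among them the asparagine synthetase Asns (2.44) and the cystine importer Slc7a11 (2.86). Of 12 chaperones and folding enzymes of the endoplasmic reticulum 9 rose and 1, Herpud1, fell (-0.66). Of 16 inhibitory immune receptors 10 rose, such as Cd72 (4.13) and Cd300lf (4.88), while 5 fell, such as Siglece (-1.22) and Vsir (-1.21). Of 11 genes of the NADPH oxidase and nitric oxide 8 rose, among them the oxidase subunit Cybb (2.19).

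Of 13 genes of arginine metabolism and alternative activation 9 rose and 2 fell. Arg1 was joined by Ass1, which makes argininosuccinate (4.89), and by Arg2 (2.88), while Retnla (-2.74) and the mannose receptor Mrc1 (-0.49) fell. Of 25 Toll-like receptor and NF-kB genes 14 rose and 2 fell, with Tlr2 at 1.68 and Tlr5 at -0.79. Of 13 growth factors 7 rose, including Gdf15 (3.76), and 3 fell, including Hbegf (-1.01). The next 3 lists had shares of rising genes closer to that of all genes. Of 19 ribosome biogenesis genes 7 rose and 0 fell, with a median of 0.20, and of 13 ion channels 5 rose, led by the potassium channel Kcnn4 (2.74), and 4 fell, with 0 that fell without sham replicate 3 or without both MCAO replicates 1 and 2. Of 8 dendritic cell markers 3 rose and 1 fell, and Ccr7, which guides migrating dendritic cells to lymph nodes, had 2.47.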
